A study of Mus musculus with 8 samples.

Results

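The mouse genes Gfi1 and Irf8, with the DNA around each, were examined in ATAC-seq peak lists of c-Kit+ bone marrow cells. All peaks that overlapped chr5:108110000-108215000 (the Gfi1 window) or chr8:123200000-123345000 (the Irf8 window) of the mm9 build were taken. The rule placed Gfi1 at about 108.154 to 108.164 Mb of chromosome 5 on the minus strand and Irf8 at about 123.26 to 123.281 Mb of chromosome 8 on the plus strand, with an Irf8 enhancer about 56 kb downstream. No measured value entered it. The windows held 254 of the 557040 peaks in the 8 lists. Merging peaks that shared at least 1 bp gave 57 of the 114533 union regions, 25 at Gfi1 and 32 at Irf8. Regions are numbered along the chromosome from Gfi1_1 to Gfi1_25 and from Irf8_1 to Irf8_32.

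ATAC-seq marks DNA that the Tn5 transposase can reach. It was performed on 50000 cells per sample, bead-selected for c-Kit (Cd117), a receptor of stem and progenitor cells, from marrow taken 4 weeks after PIpC, which induces the Mx1-Cre recombinase. Control mice were Smc3 fl/+ and lacked Mx1-Cre, so their floxed allele stayed intact. Smc3 del/+ mice carried Mx1-Cre and had lost an allele of Smc3, a core subunit of the cohesin ring. Flt3-ITD mice carried an activating internal tandem duplication in the receptor tyrosine kinase Flt3, and their titles also name Mx1-Cre. The combined genotype, called Smc3-deleted Flt3-ITD here, is labelled Smc3 fl/del Flt3-ITD while its titles read Smc3het, so its second Smc3 allele is uncertain. Age and strain are not stated in the labels. Mx1-Cre acts in many cells that respond to interferon, and the share of cells with a deleted allele is unknown. Each genotype had 2 libraries. The labels do not say outright that these came from separate animals, so p-values compare libraries and may not extend to mice.

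Gfi1 is a zinc-finger repressor that restrains stem cell proliferation and favours granulocyte over monocyte fate. Irf8 is an interferon regulatory factor required for monocytes and dendritic cells, and separate distal enhancers control it in different myeloid lineages. The factors act against each other where granulocyte and monocyte progenitors part. Flt3 signals through STAT5, among other routes, and cohesin holds loops that bring enhancers to promoters.

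A RefSeq table of promoters (GRCm38.p6) held 2 entries for each gene, and all 4 matched by symbol. The 250 bases before the first listed start of each gene are printed to set the STAT-type letters of Irf8 beside a Gfi1 sequence that lacks them. They run 5′ to 3′ on the gene's strand. Capitals mark matches to any of 6 motifs, searched on both strands. The motif TTCNNNGAA is bound by STAT factors and AAATCA by Gfi1 itself.

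Irf8 promoter 1: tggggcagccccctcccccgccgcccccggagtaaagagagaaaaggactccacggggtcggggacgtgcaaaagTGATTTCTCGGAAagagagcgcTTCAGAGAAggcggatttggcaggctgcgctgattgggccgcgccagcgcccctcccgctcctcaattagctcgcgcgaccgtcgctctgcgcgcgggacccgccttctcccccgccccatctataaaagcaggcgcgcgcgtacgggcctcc

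Gfi1 promoter 1: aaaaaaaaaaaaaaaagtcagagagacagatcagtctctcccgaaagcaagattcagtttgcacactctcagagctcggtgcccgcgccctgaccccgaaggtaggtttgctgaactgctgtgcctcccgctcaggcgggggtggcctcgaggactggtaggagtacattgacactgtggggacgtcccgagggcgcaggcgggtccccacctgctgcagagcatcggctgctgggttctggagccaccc

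The Irf8 sequence held 2 STAT matches, TTCTCGGAA at -171 to -163 and TTCAGAGAA at -153 to -145 from the start, and 1 GFI1 match (TGATTT, the reverse strand of the motif) at -175 to -170. The GFI1 match shared its last bases with the first STAT match. At least 1 STAT match stood in 7.02% of the 32851 RefSeq promoters of this length and a GFI1 match in 12.4%. The IRF motif GAAANNGAA was found in 7.13% of them. Letters of the PU.1 core, GAGGAA, occurred in 23.3%. For the RUNX motif TGTGGT the share was 14%. For the GATA motif AGATAA it was 9.99%. The second Irf8 promoter held 1 GFI1 match, and neither Gfi1 promoter held any of the 6. A match is a run of letters and does not show binding. These sequences are from another build than the peaks and were not placed on them. Sequence under the peaks was not analysed here.

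Before the loci are compared, 2 facts about the libraries matter. The lists held 61953 to 80698 peaks, most in both Smc3-deleted Flt3-ITD libraries. Those 2 also stood apart on the sex chromosomes, with 294 and 282 peaks on Y against 84 to 98 elsewhere, and 2.60% and 2.72% of peaks on X against 3.49% to 3.79%. The part of this difference in the results below was not tested. The written descriptions of the Smc3 del/+ samples name Flt3-ITD, and those of the Flt3-ITD samples name floxed Smc3, against their titles. Titles were followed, and any statement that sets these genotypes apart would change hands if the descriptions were right. Values are listed in the order control, Smc3 del/+, Flt3-ITD, Smc3-deleted Flt3-ITD, replicate 1 before 2, with 0 where no peak was called. Peak lists carry no read number, so the depth of a library is unknown and a missing call does not show closed chromatin. In bulk cells, a site open in fewer cells and a site less open in each cell cannot be told apart.

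At Irf8, Smc3-deleted Flt3-ITD libraries had the most called peaks and the most bases covered, and the separation was clearest downstream of the gene. The window held 15 and 12 peaks in control, 13 and 11 in Smc3 del/+, 13 and 11 in Flt3-ITD, and 22 and 21 in Smc3-deleted Flt3-ITD libraries. Peaks covered 8.18 ± 0.0361 kb of the 145 kb window in control, 7.72 ± 0.363 kb in Smc3 del/+, 6.52 ± 1.18 kb in Flt3-ITD and 12.6 ± 0.448 kb in Smc3-deleted Flt3-ITD (mean ± SD, n = 2). The last group covered 1.54 times the bases of control, while its whole lists covered 1.14 times the bases of the control lists. The other 6 libraries lay between 5.69 and 8.21 kb, below both Smc3-deleted Flt3-ITD libraries at 12.9 and 12.3 kb.

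**Figure D1:**
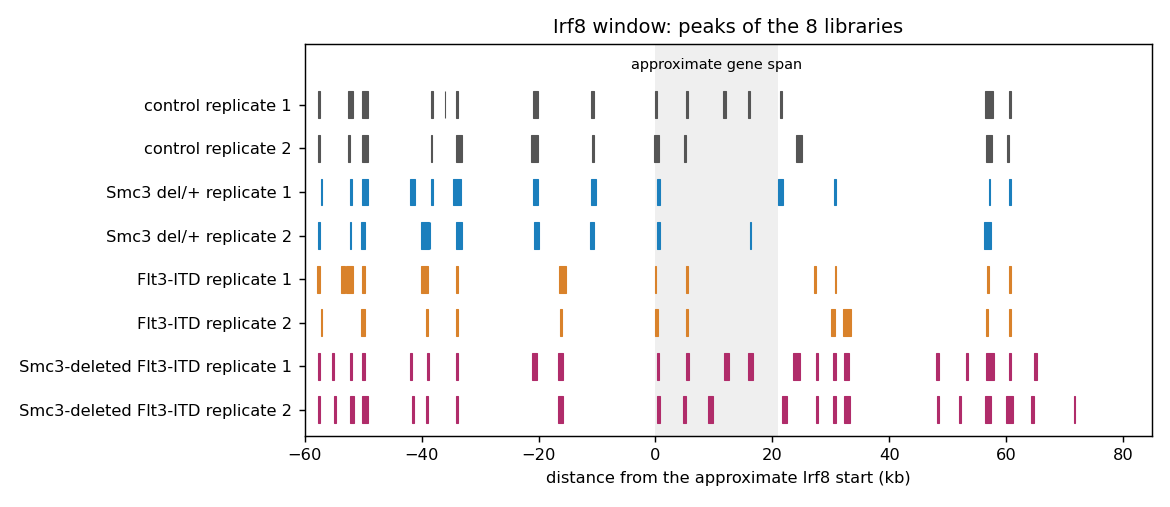
Peaks of the 8 libraries in the Irf8 window, drawn to scale as bars against distance in kb from the approximate Irf8 start, with the approximate gene span shaded and 1 row per library. In the lower 2 rows (Smc3-deleted Flt3-ITD), peaks lie all along the stretch past the gene, where 9 of 11 regions were called in each library. The 11 regions are a union over the 8 lists and include regions called only in those rows.

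Of the 11 regions past the given end of Irf8, control libraries called 2 and 3, Smc3 del/+ libraries 3 and 1, Flt3-ITD libraries 4 and 4, and Smc3-deleted Flt3-ITD libraries 9 and 9. Peaks there covered 5892 and 5316 bp in Smc3-deleted Flt3-ITD libraries and 913 to 2874 bp in the other 6. The 11 regions are a union over all 8 lists. Among them, Irf8_26, Irf8_27, Irf8_28, Irf8_31 and Irf8_32 were called only in Smc3-deleted Flt3-ITD libraries. The count of 9 is thus partly set by how the regions were built. Lists of this genotype were also the longest, at 80698 and 80316 peaks against 61953 to 74525 in the other 6. The share of all union regions called in each library was not computed, so the counts here have no background. Calls among the 15 regions before the given start numbered 8, 7, 8, 8, 7, 5, 9 and 8, so the genotypes overlapped there. Of the 6 regions on the gene span, 5, 2, 2, 2, 2, 2, 4 and 4 were called. There, control replicate 1 had more calls than either Smc3-deleted Flt3-ITD library, but peaks covered 2570 and 2602 bp in the latter and 643 to 2115 bp in the other 6.

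Taking an equal number of peaks from each list (the 61953 of highest score) left Smc3-deleted Flt3-ITD highest, at 9.61 and 10.7 kb against 5.69 to 8.16 kb. In the upper 50% of each list by score the separation ended: these libraries covered 5.02 and 5.74 kb, and control 5.55 and 3.37 kb. The score is the authors' own, and no source used here says what it measures.

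Bases covered at each locus were compared by Smc3 deletion, by Flt3-ITD and by their interaction, 6 tests in all, with an exact two-sided permutation over 70 assignments of the 8 libraries. For the interaction, the single genotypes form the second side. At Irf8, the control and Smc3-deleted Flt3-ITD libraries averaged 10395 bp and the single genotypes 7121 bp, with no overlap between the sides. The difference of 3274 bp gave an exact permutation p of 0.0286, the smallest this test can give, and 0.171 after Benjamini-Hochberg adjustment. It did not pass the correction, but a lone test at this smallest value could not pass among 6, whatever its effect. The sides overlapped, with p = 0.0571 (exact permutation), as a share of each list's bases, with an equal number of peaks, and with 10 kb trimmed from each end of the window. In the upper 50% by score they did not overlap (3280.25 bp, exact permutation p = 0.0286, adjusted 0.0857). Smc3 deletion (2815 bp more, exact permutation p = 0.229) and Flt3-ITD (1614 bp more, p = 0.429) did not pass before adjustment. Both rested on the combined genotype: without its 2 libraries, the difference from control was -459.5 bp for Smc3 del/+ and -1660 bp for Flt3-ITD.

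The region over the approximate Irf8 start, Irf8_16 (chr8:123259796-123260799), was called in all 8 libraries. Its bases covered were 409, 837, 434, 468, 251, 473, 346 and 421 bp. Width did not separate the genotypes, but position did. Peaks began at 123259796 to 123259897 in control and 123259886 to 123259899 in Flt3-ITD libraries. They began at 123260317 to 123260332 in Smc3 del/+ and 123260280 to 123260291 in Smc3-deleted Flt3-ITD libraries. The start thus lay 435.5 bp further into the gene in the 4 libraries with Smc3 deletion (SD 23.8 bp against 49.3 bp, n = 4 each), with a gap of 381 bp between the sides. No base was common to all 8 peaks. This measure was chosen after its values were seen and has no test. Among 28514 regions with a single peak in each of the 8 libraries, 1.25% had starts so ordered by Smc3 deletion and 0.105% by at least 300 bp. Irf8_16 was the only 1 of 12 members so ordered, and this ordering was 1 of 18 combinations of peak edge or centre, contrast and direction that were looked at. Its peak centre and end were ordered in the same way, but they belong to the same peaks and are not independent of the start. The ends nearly met, at 123260632 in control replicate 2 and 123260636 in Smc3-deleted Flt3-ITD replicate 1. In the same scan, peak ends at Gfi1_4, Gfi1_7 and Gfi1_13 lay lower in control and the combined genotype than in the single genotypes (2.65% of all such regions).

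**Figure D2:**
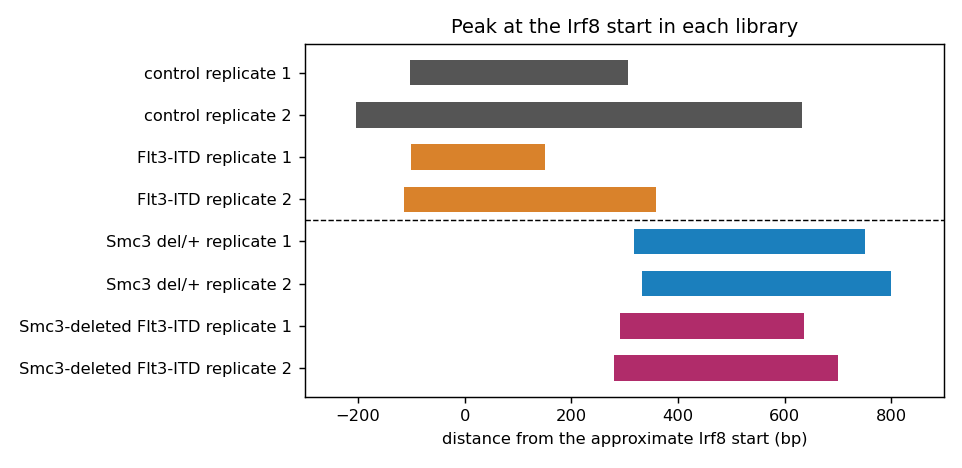
Extent of the peak at the approximate Irf8 start in each library, in bp from that start, with libraries without Smc3 deletion above the dashed line and those with it below. Bars above the line begin before the start, and bars below it begin further into the gene, with a gap of 381 bp between the sides.

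The region nearest the stated enhancer position, Irf8_29 (chr8:123316111-123317845, centred at 57.0 kb from the start), was also called in all 8 libraries. It covered 1243 and 1155 bp in control, 100 and 1331 bp in Smc3 del/+, 291 and 358 bp in Flt3-ITD, and 1301 and 1016 bp in Smc3-deleted Flt3-ITD. Both Flt3-ITD peaks were thus narrower than those of control and of the combined genotype, while the Smc3 del/+ replicates disagreed, and no base was common to all 8 libraries. Its neighbour Irf8_30 at 60.5 kb was called in 7 libraries and missed in Smc3 del/+ replicate 2.

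The authors' score reached its top value of exactly 1 at Irf8_16, Irf8_29 and Irf8_12 (chr8:123225387-123226972) in the 2 Smc3-deleted Flt3-ITD libraries and in no other. Those lists also had the highest share of all peaks at exactly 1, 34.7% and 34.9% against 27.2% to 32.0%, and no change at these sites is read from it. Irf8_6 (chr8:123209693-123210819, centred at -49.7 kb) had the top score in all 8 libraries. It covered 1067, 942, 987, 623, 523, 556, 498 and 1025 bp.

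Upstream of Irf8, 2 regions followed Flt3-ITD in every library. Irf8_14 (chr8:123243300-123244625, centred at -16.0 kb) was called in all 4 libraries with Flt3-ITD, at 1052, 354, 740 and 803 bp, and in none of the other 4. Irf8_15 (chr8:123248790-123249784, centred at -10.7 kb) was called in all 4 libraries without it, at 592 and 305 bp in control and 798 and 678 bp in Smc3 del/+, and in none with it. The calling peaks had 354 bp in common at Irf8_14 and 305 bp at Irf8_15. Only 4.16 kb separate these regions, and no library that missed either had another peak within 1 kb of it. Under the written descriptions in place of the titles, this split would follow Smc3 deletion.

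Of 12 Irf8 regions called in all 4 libraries of at least 1 side, 1 was called only with Flt3-ITD (1.92% of all regions) and 1 only without it (2.5%). At Gfi1, 0 of 15 regions split in this way. By Smc3 deletion, 0 regions split at either locus (0.311% and 0.394% of all regions), and by the interaction 0 (0.813% and 0.0968%). Both Irf8 regions kept their split with an equal number of peaks per list, and neither did in the upper 50% by score. In that upper 50%, 1 Gfi1 region split by Flt3-ITD instead. Gfi1_19 (chr5:108187732-108189133) was then called in all 4 libraries without Flt3-ITD and in none with it. In the full lists 7 libraries called Gfi1_19.

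For genotype pairs, a gained region had a peak in both replicates of the first and in no replicate of the second, and a lost region the reverse. The smallest p for 2 against 2 libraries is 0.33, so pairs have no test. The pairs share libraries and are not independent of each other.

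Flt3-ITD against control gained 3 of 14 Irf8 regions (4.42% of all regions) and lost 3 (7.85%). Beside Irf8_14, the gains were Irf8_8 and Irf8_24. Irf8_24 (chr8:123289987-123290905, centred at 30.4 kb) covered 0, 0, 450, 0, 183, 791, 433 and 433 bp, so Smc3 del/+ replicate 1 had it too. Beside Irf8_15, the losses were Irf8_10 and Irf8_13. Irf8_13 (chr8:123238707-123240102, centred at -20.6 kb) covered 816, 1230, 810, 806, 0, 0, 966 and 0 bp. It was absent from both Flt3-ITD libraries and present in only 1 of the combined genotype.

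Irf8_8 (chr8:123219847-123221257) covered 0, 0, 0, 1411, 1255, 403, 394 and 400 bp. Irf8_10 (chr8:123221553-123221898) covered 316, 156, 312, 0, 0, 0, 0 and 0 bp. These 2 lie 295 bp apart, and every library had exactly 1 of them. No library lacked a peak in this stretch of 2.05 kb.

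Smc3-deleted Flt3-ITD against control gained 9 of 20 Irf8 regions (14.2% of all regions) and lost 2 (6%), Irf8_10 and Irf8_15. In the upper 50% by score it gained 2 and lost 0. The 9 gains in the full lists were Irf8_3, 7, 8, 14, 23, 24, 25, 26 and 31, and 5 of them lay past the gene. Irf8_23 (chr8:123287105-123287852) covered 359 bp in Flt3-ITD replicate 1, 290 and 460 bp in the combined genotype, and 0 elsewhere. Irf8_25 (chr8:123292153-123293450, centred at 32.8 kb) covered 1298 bp in Flt3-ITD replicate 2, 994 and 998 bp in the combined genotype, and 0 elsewhere. The peaks of those 3 libraries shared 870 bp, a broad common core. Upstream, Irf8_7 (chr8:123218013-123218931) covered 919 bp in Smc3 del/+ replicate 1, 358 and 363 bp in the combined genotype, and 0 elsewhere.

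At Irf8, 3 of 17 regions were called in both replicates of the combined genotype and in no other library, beside 7.93% of all regions, and at Gfi1 0 of 16. Irf8_3 (chr8:123204652-123205299) covered 404 and 261 bp there, Irf8_26 (chr8:123308006-123308513, centred at 48.3 kb) 434 and 384 bp, and Irf8_31 (chr8:123324309-123325205, centred at 64.8 kb) 489 and 433 bp. The replicate peaks shared 310 bp at Irf8_26 but only 17 bp at Irf8_3 and 25 bp at Irf8_31. Irf8_26 and Irf8_31 lie on either side of the enhancer region Irf8_29. Flt3-ITD replicate 1 had a peak 889 bp from Irf8_3. With an equal number of peaks per list only Irf8_26 was still called in both libraries. Irf8_3 was then called in 1 and Irf8_31 in 0.

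Adding Smc3 deletion to Flt3-ITD gained 4 of 17 Irf8 regions (Irf8_3, 7, 26 and 31, 13% of all regions) and lost 0 (2.96%). Against Smc3 del/+, the combined genotype gained 7 of 19 (Irf8_3, 14, 17, 23, 25, 26 and 31, 19.7%) and lost 1 (Irf8_15, 5.95%). Both gained shares stood above their backgrounds and both lost shares did not; these differences from the background were not tested.

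Smc3 del/+ against control gained 0 of 11 Irf8 regions (3.02% of all regions) and lost 1 (8.04%). The lost region, Irf8_17 (chr8:123264788-123265711), lies within the approximate gene span at 5.25 kb. It covered 377, 373, 0, 0, 392, 384, 448 and 429 bp, so it was missing from Smc3 del/+ alone. Flt3-ITD against Smc3 del/+ gained 2 of 12 (Irf8_14 and Irf8_17, 8.69%) and lost 2 (Irf8_13 and Irf8_15, 7.91%).

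At Gfi1 the same libraries that led at Irf8 covered the fewest bases, with a number of peaks inside the range of the others but few wide ones. The window held 19 and 19 peaks in control, 15 and 13 in Smc3 del/+, 17 and 20 in Flt3-ITD, and 17 and 16 in Smc3-deleted Flt3-ITD. Peaks covered 11.2 ± 0.533 kb of the 105 kb window in control, 10.1 ± 0.705 kb in Smc3 del/+, 10.6 ± 0.886 kb in Flt3-ITD and 7.18 ± 0.0438 kb in Smc3-deleted Flt3-ITD (mean ± SD, n = 2). The last was 0.639 times control, although its whole lists covered more bases. Its libraries covered 7.14 and 7.21 kb, and the other 6 between 9.61 and 11.6 kb.

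**Figure D3:**
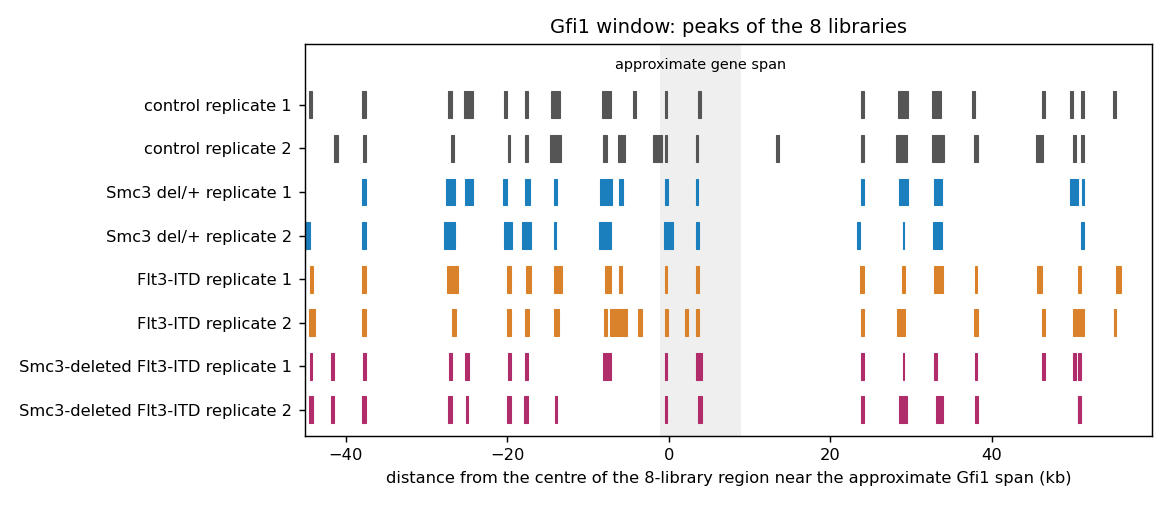
Peaks of the 8 libraries in the Gfi1 window, drawn to scale as bars against distance in kb along the chromosome from the 8-library region Gfi1_13, with the approximate gene span shaded. The Smc3-deleted Flt3-ITD rows hold 17 and 16 peaks, within the 13 to 20 of the other rows, but few wide bars.

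Peaks wider than 1000 bp in the Gfi1 window numbered 5, 4, 4, 6, 3, 1, 0 and 1. Both Smc3-deleted Flt3-ITD libraries and Flt3-ITD replicate 2 were thus at the low end. In the whole lists such peaks made up 11.6%, 11.9%, 17.0%, 17.0%, 15.4%, 15.5%, 10.4% and 10.9%, lowest in the same 2 libraries of the combined genotype. The part of this list-wide width in the Gfi1 result was not tested. With an equal number of peaks the combined genotype stayed lowest, at 5.99 and 5.24 kb against 7.54 to 10.8 kb. So it did in the upper 50% by score, at 3.31 and 3.5 kb against 4.19 to 7.61 kb.

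In the same family of 6 tests, the difference for Smc3 deletion at Gfi1 was -2283 bp (8644 ± 1744 bp against 10927 ± 689 bp, SD, n = 4 each; exact permutation p = 0.0571, adjusted 0.171). The difference for Flt3-ITD was -1767 bp (exact permutation p = 0.229, adjusted 0.343) and for the interaction -1170.5 bp (p = 0.4, adjusted 0.429). None passed before or after adjustment. In the upper 50% by score, Smc3 deletion turned to 18 bp, and Flt3-ITD reached -2947.5 bp (exact permutation p = 0.0286, the smallest possible, adjusted 0.0857). Without the 2 libraries of the combined genotype, the differences from control were -1112.5 bp for Smc3 del/+ and -596.5 bp for Flt3-ITD.

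**Figure D4:**
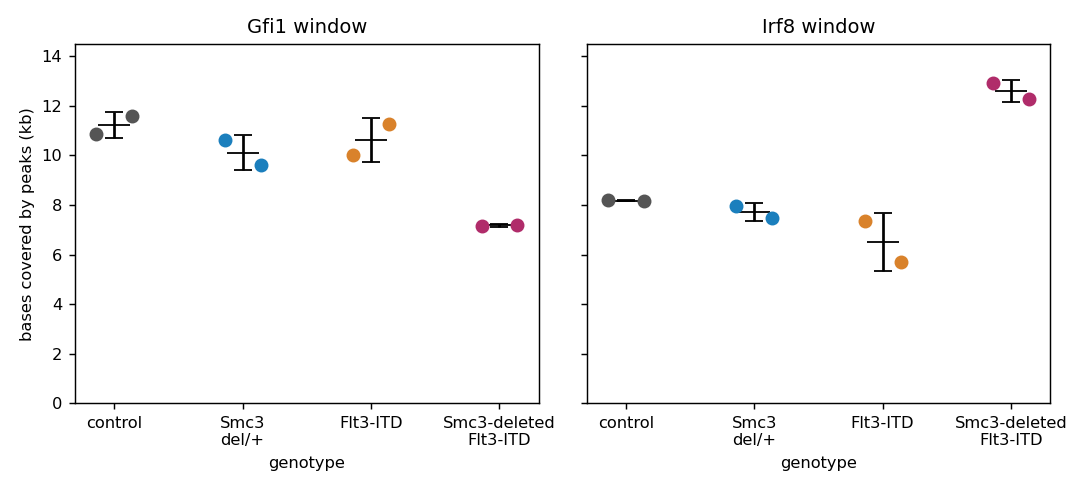
Bases covered by peaks (kb) in the Gfi1 window (left) and the Irf8 window (right) by genotype, with 1 point per library and bars for mean ± SD (n = 2). Smc3-deleted Flt3-ITD libraries sit lowest at Gfi1 (7.14 and 7.21 kb) and highest at Irf8 (12.9 and 12.3 kb).

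Gfi1 regions were more often shared by all libraries than Irf8 regions. All 8 libraries called 8 of 25 Gfi1 regions (32%) and 4 of 32 Irf8 regions (12.5%), against 31.5% of all regions. Regions called in a single library numbered 6 (24%) and 7 (21.9%), near the 24.0% of all regions. The replicates of every genotype had the same call in 9 of 25 and 10 of 32 regions, against 42.7% of all regions, so replicate disagreement was common at both loci. This comparison of the loci was not tested.

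Gfi1_13 (chr5:108154560-108155621), at the low end of the approximate gene span, was called in all 8 libraries at 232, 328, 345, 1062, 304, 436, 272 and 301 bp. Its score was exactly 1 in all but Smc3 del/+ replicate 2, whose peak was also the widest. Gfi1_15 (chr5:108158414-108159249), also on the span and in all lists, covered 345, 224, 335, 306, 360, 331, 720 and 492 bp. Its peaks were widest in the combined genotype, against the direction of the window as a whole.

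The gene lies on the minus strand, so by the span as given its transcription start would lie at the high end, near 108.164 Mb. No library had a peak between 108159250 and 108168377 around that point. The span is approximate and no mm9 annotation was used here, so this does not show that the Gfi1 start lacks a peak. Whether the 8-library region Gfi1_13, at the other end, lies at the true start could not be checked. Gfi1_13 and Gfi1_15 are on the span only as it was given, and no Gfi1 region is called a promoter. In RefSeq (GRCm38.p6) the nearest coding genes are Rpap2 and Evi5 at Gfi1 and Cox4i1 and Foxf1 at Irf8, and some regions of the windows may lie in or near them.

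The remaining 8-library Gfi1 regions lie outside the span. Gfi1_4 (chr5:108127235-108128996) covered 439, 374, 1217, 1386, 1364, 462, 453 and 444 bp, wide in both Smc3 del/+ libraries and Flt3-ITD replicate 1. Gfi1_6 (chr5:108134540-108135708) covered 424, 347, 524, 1062, 529, 466, 406 and 551 bp. Gfi1_18 (chr5:108183178-108184775) covered 1198, 1378, 1143, 110, 345, 986, 191 and 1075 bp, so replicates differed as much as genotypes. Gfi1_3, Gfi1_4 and Gfi1_17 had the top score in all 8 libraries.

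Smc3 del/+ against control gained 0 of 15 and lost 2 (3.02% and 8.04% of all regions), Gfi1_20 and Gfi1_21. Gfi1_20 (chr5:108192592-108193423) covered 398, 435, 0, 0, 331, 486, 296 and 388 bp. Like Irf8_17, it was missing from Smc3 del/+ alone, a pattern of 2.67% of all regions, and kept it with an equal number of peaks. Gfi1_21 (chr5:108200609-108201730) covered 339, 834, 0, 0, 595, 378, 322 and 0 bp.

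Other patterns that set a single genotype apart from the other 6 libraries were met by 0 regions at both loci. These were a call in control alone (1.3% of all regions) or in all but control (0.434%), in Smc3 del/+ alone (1.27%), in Flt3-ITD alone (0.725%) or in all but Flt3-ITD (0.879%), and in all but Smc3-deleted Flt3-ITD (0.771%).

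Flt3-ITD against control gained 0 and lost 0 of 16 Gfi1 regions (4.42% and 7.85% of all regions), but in the upper 50% by score it lost 3. Smc3-deleted Flt3-ITD against control gained 0 of 18 (14.2% of all regions) and lost 1 (6%), Gfi1_23 (chr5:108206121-108206510), which covered 305, 335, 282, 364, 0, 363, 0 and 0 bp. The 3 libraries without Gfi1_23 each had a peak in Gfi1_22, which ends 8 bp away. The combined genotype gained 2 of 17 against Flt3-ITD and lost 0 (13% and 2.96% of all regions), and with an equal number of peaks per list it gained 1 and lost 2. Gfi1_2 (chr5:108113266-108114074) covered 405 bp in control replicate 2, 422 and 310 bp in the combined genotype, and 0 elsewhere. Gfi1_5 (chr5:108129697-108130850) covered 1154, 0, 952, 0, 0, 0, 479 and 276 bp. Against Smc3 del/+ the combined genotype gained Gfi1_2 and Gfi1_20 and lost Gfi1_23, of 17 (19.7% and 5.95%). Flt3-ITD against Smc3 del/+ gained Gfi1_20 and Gfi1_21 and lost 0, of 16 (8.69% and 7.91%).

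**Figure D5:**
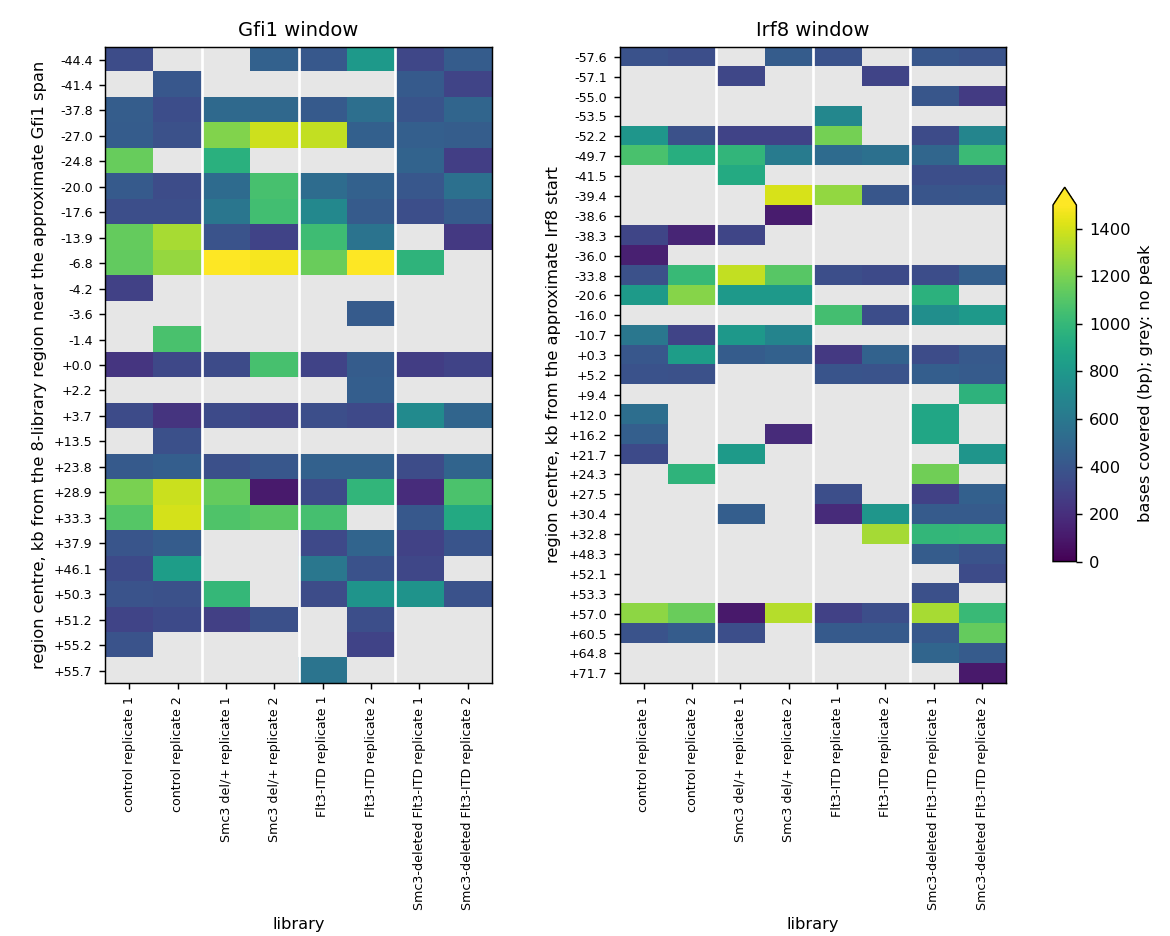
Bases covered (colour, bp) in each of the 25 Gfi1 regions (left) and 32 Irf8 regions (right), with rows in chromosome order labelled by distance in kb and 1 column per library; grey marks no peak. At Irf8, rows -16.0 and -10.7 split by Flt3-ITD. Of the 11 rows past +24, 9 are filled in each Smc3-deleted Flt3-ITD column and 1 to 4 in each other column.

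Widths within the 12 regions called in every library were compared by limma on log2 bases covered, fitted over all 36101 regions of that kind. With Benjamini-Hochberg adjustment limma called 0 regions (0% of 36101) for Smc3 deletion, Flt3-ITD or the interaction, and 2200, 2476 and 2565 regions had an unadjusted p under 0.05. Among the 12 members these were 0, 2 and 2. On the log2 scale Irf8_12 was narrower with Flt3-ITD by -1.18 (SE 0.34, limma adjusted p = 0.509), its libraries covering 371, 1012, 1362, 1113, 361, 338, 357 and 456 bp. Gfi1_15 was wider with Flt3-ITD by 0.63 (SE 0.23, limma adjusted p = 0.646). The interaction was -2.32 at Gfi1_4 (SE 0.72, limma adjusted p = 0.542) and -1.40 at Gfi1_7 (SE 0.55, limma adjusted p = 0.677). At the enhancer region Irf8_29 it was 3.74 (SE 1.56, limma adjusted p = 0.713). None of these passed the correction.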

How the data were processed

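The data were 8 deposited ATAC-seq peak lists, each of a single library. Per the submitters' processing notes, the authors used Bowtie and mm9; no peak caller is named in the sources used here. The deposited score of a peak, from 0.99 to 1, is the authors' own and was used only to rank peaks within a list. Deposited start and end coordinates gave the bases covered. Peaks were merged into regions at 1 bp of overlap; 1550 repeated intervals within lists merged with them. Groups follow the titles. Window totals were compared by exact permutation, and widths by limma 3.58.1 (R 4.3.3) on log2 bases covered, centred on each library's median. The scripts used Python 3.11.15, numpy 2.4.6 and pandas 2.3.3 and were tested on simulated data. Named regions were those gained or lost in a pair, the 3 widest 8-library regions per window, and 8-library regions on a gene span or at the enhancer. Irf8_30, Gfi1_3, Gfi1_7 and Gfi1_17 were added after their values were seen. Irf8_27, Irf8_28, Irf8_32, Gfi1_19 and Gfi1_22 are also named outside these rules. Members, motifs and rules were chosen with earlier results of these data known. Cell type markers were not checked, since no mm9 annotation was used here. Alternatives were fewer peaks, other merging, trimmed windows, exchanged labels, libraries left out and a replicate block.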

Additional observations from a re-analysis of the deposited data

Results flagged for a closer look

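The interaction at Irf8 met the rule for an effect that differs between groups: Smc3 deletion went with fewer bases covered without Flt3-ITD (7.72 against 8.18 kb) and with more in its presence (12.6 against 6.52 kb). The difference between the sides was 3274.25 bp (exact permutation p = 0.0286 unadjusted, 0.171 adjusted over 6 tests). Each library of the combined genotype lay above each Flt3-ITD library, and each Smc3 del/+ library below each control library. The second gap was narrow, with 7.978 kb in Smc3 del/+ replicate 1 against 8.155 kb in control replicate 2. With an equal number of peaks, Smc3 del/+ replicate 1 lay above control replicate 1 (7.978 against 7.666 kb). It also did as a share of list bases (0.0219% against 0.0211%). These 2 libraries of the combined genotype also differed from the other 6 in their peaks on X and Y, whose part in the result was not tested.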

How the results depend on the processing

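The count of alternative values that kept direction and call, 159, is not a measure of robustness. Width calls were 0 in every setting. No window test passed adjustment in any, and a lone test at its smallest possible p could not have. Exchanging the single-genotype labels leaves the interaction the same by construction. Beside these 159, 19 counts of regions moved by over 1.5 times, and 3 differences reversed. Reversed were the Gfi1 difference for Smc3 deletion in the upper 50% of each list by score (18 bp), and, without both Smc3-deleted Flt3-ITD libraries, the Irf8 differences for Smc3 deletion (-459.5 bp) and Flt3-ITD (-1660 bp). In the upper 50%, regions gained or lost over both loci fell to 6 from 12 for Smc3-deleted Flt3-ITD against control, to 2 from 6 against Flt3-ITD, and to 2 from 6 for Flt3-ITD against Smc3 del/+. Leaving out each library in turn kept every direction: at Gfi1 -2938.75 to -1783.08 bp for Smc3 deletion, -2551.42 to -1181.08 for Flt3-ITD and -1971.17 to -485.167 for the interaction; at Irf8 1894.5 to 3715.17, 493.917 to 2906.58 and 2430.58 to 4020.92. The lowest Irf8 value for Flt3-ITD came without Smc3-deleted Flt3-ITD replicate 1 and the highest without Flt3-ITD replicate 2; the smallest Gfi1 interaction came without Smc3-deleted Flt3-ITD replicate 1. Pair counts rose by construction, since 1 library then decides: 7 to 8 for Smc3 del/+ (3 with all), 10 to 13 for Flt3-ITD (6) and 14 to 18 for the combined genotype (12) against control, 9 to 15 for the combined genotype against Flt3-ITD (6) and 16 to 17 against Smc3 del/+ (11), and 10 to 12 for Flt3-ITD against Smc3 del/+ (6). Width calls stayed at 0. Replicate numbers share only a number: widths of same-numbered libraries deviated with correlations of -0.0133 to 0.00861. For the Irf8 interaction, p was 0.0571 (exact permutation) for shares, equal peaks and trimmed windows. With the replicate block the Irf8 interaction of 3274.25 bp had p = 0.0556 (exact permutation within blocks, adjusted 0.33). That is the smallest p the blocked test can give, so the rise from the main test does not show a weaker result. Gfi1 Smc3 deletion had p = 0.111 (exact permutation within blocks), and widths gave 0 calls. Peak lists hold no reads, so no depth or interval can be given.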
